A study of Mus musculus with 15 samples.

Results

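The miR-181 family is a set of 4 mature microRNAs, miR-181a-5p, miR-181b-5p, miR-181c-5p and miR-181d-5p, which share the same seed. They were the members followed here, 4 of the 718 miRNA arms that had at least 1 read in the 15 mouse libraries of the series. An insert was counted for a member when it was 18 to 26 bases long and its first 18 bases were those of the member's 5p arm. The rule itself uses names and sequences. All 4 members had reads in all 15 libraries.

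A microRNA is cut from a hairpin precursor and guides an Argonaute protein to messenger RNAs that pair with its seed, which lowers their translation or stability. One arm of the hairpin is usually kept as the guide and the other, the passenger, is usually degraded. Members of a family share the seed and so overlap in their predicted targets. In mouse, miR-181a is known for its roles in lymphocyte development, where it tunes the sensitivity of T cell receptor signalling. In mammary tumour cells the family has been linked to TGF-beta signalling and to the progesterone receptor.

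Small RNA was compared in 5 groups of 3 libraries. TUBO is a breast cancer line from primary tumours of Balb-NeuT mice, whose transgene drives an activated rat Neu, the rat form of Her2, from the MMTV promoter. It was sampled as exosomes taken from its culture supernatant, as the supernatant that exosome isolation left behind, and as cells. MM3MG-Her2 cells are MM3MG cells transduced with pLSXN-Neu retroviral particles. MM3MG cells, the untransduced parent, come from normal mammary epithelium of BALB/c mice. All cultures were in DMEM with 10% FCS. The series set out to find miRNAs acting on the progesterone receptor (PgR), in lines with Her2 and in the particles shed by them. The labels do not say whether the transduced cells were 1 clone or a pool, or whether replicates were separate cultures. The p-values therefore reflect only how far these libraries scatter, and that scatter may be technical.

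The mature sequences are printed because the members differ by only a few bases, and the seed that makes them a family (bases 2 to 8) is in capitals. They are RefSeq sequences on GRCm38.p6, written 5′ to 3′.
miR-181a-5p: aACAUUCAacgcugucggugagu
miR-181b-5p: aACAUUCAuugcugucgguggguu
miR-181c-5p: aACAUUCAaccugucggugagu
miR-181d-5p: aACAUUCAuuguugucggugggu

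In the RefSeq table no other mature miRNA began with this seed at its base 2. Counted from 1 at the 5′ end, miR-181b-5p differs from miR-181a-5p by A9U, C10U and A21G, and miR-181d-5p differs from miR-181b-5p by C12U alone. miR-181c-5p reads as miR-181a-5p with 1 base, the G at position 11, removed. Of the passenger arms, the 3 with the most reads are shown because they differ between hairpins, again with bases 2 to 8 in capitals.
miR-181a-1-3p: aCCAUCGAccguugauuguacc
miR-181a-2-3p: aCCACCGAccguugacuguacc
miR-181c-3p: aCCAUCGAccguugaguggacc

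miR-181a-2-3p differs from miR-181a-1-3p by U5C and U16C, and miR-181c-3p differs from miR-181a-1-3p by U16G and U19G, of which U19G lies outside the 18 bases matched.

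Mouse carries 6 miR-181 hairpins at 3 loci, each holding 2 of them (GRCm38, GENCODE M21). Mir181a-1 at chr1:137966455-137966541 and Mir181b-1 at chr1:137966639-137966718, both on the plus strand, lie 97 bases apart within an exon of the lincRNA A430106G13Rik and an intron of Gm4258. Mir181a-2 at chr2:38852735-38852810 and Mir181b-2 at chr2:38853830-38853918, also on the plus strand, lie 1019 bases apart in an intron of Nr6a1, antisense to that gene. Mir181c at chr8:84178873-84178961 and Mir181d at chr8:84178716-84178787, on the minus strand, lie 85 bases apart in an intron of Nanos3, on its own strand. The 5p arms of both miR-181a hairpins are identical, as are those of both miR-181b hairpins, so a 5p read does not say which locus it came from. The 3p arms do.

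Total reads ran from 196152 to 710902 per library and miRNA reads from 56678 to 521142. The share of reads that were miRNA was 57.0% ± 1.57 in TUBO exosomes, 29.4% ± 2.42 in TUBO supernatant, 73.8% ± 0.470 in TUBO cells, 49.5% ± 2.31 in MM3MG-Her2 and 71.7% ± 3.36 in MM3MG (SD, n = 3 each). Levels are given as reads per 1000000 miRNA reads (CPM). Epithelial marker miRNAs (the miR-200 family, miR-203-3p and miR-205-5p, 7 in all) were against the label of the MM3MG lines. Their summed level was 25307 to 26586 CPM in TUBO cells, 12.1 to 41.8 CPM in MM3MG-Her2 and 21.2 to 32.7 CPM in MM3MG, and miR-203-3p and miR-205-5p were at 0 in MM3MG-Her2. The 5 mesenchymal or stromal markers summed to 48372 to 48506 CPM in TUBO cells, with miR-214-3p at 0, to 95754 to 99958 CPM in MM3MG-Her2 and to 165095 to 180697 CPM in MM3MG. Nearly all of the sum in TUBO cells was miR-143-3p, at a mean of 48175 CPM. The median log2 fold change of the 5 in TUBO cells was −9.96 against MM3MG and −8.90 against MM3MG-Her2. CPM are shares of one library, so fewer cells of a type and less RNA per cell cannot be told apart.

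The family as a whole took 7.44% ± 1.41 of miRNA reads in TUBO exosomes, 1.82% ± 0.541 in TUBO supernatant, 6.83% ± 0.124 in TUBO cells, 2.39% ± 0.0618 in MM3MG-Her2 and 4.57% ± 0.684 in MM3MG (SD, n = 3 each). miR-181a-5p was the most abundant member in each group and ranked 6 of 467 arms with reads in TUBO exosomes, 17 of 332 in TUBO supernatant, 8 of 474 in TUBO cells, 12 of 447 in MM3MG-Her2 and 5 of 524 in MM3MG. miR-181b-5p ranked between 18 and 33. The rarer pair moved most in rank: miR-181d-5p ranked 42, 71 and 40 in TUBO exosomes, supernatant and cells, 224 in MM3MG-Her2 and 235 in MM3MG. Levels of different members are compared only loosely here, because adapter ligation favours some ends over others.

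**Figure D1:**
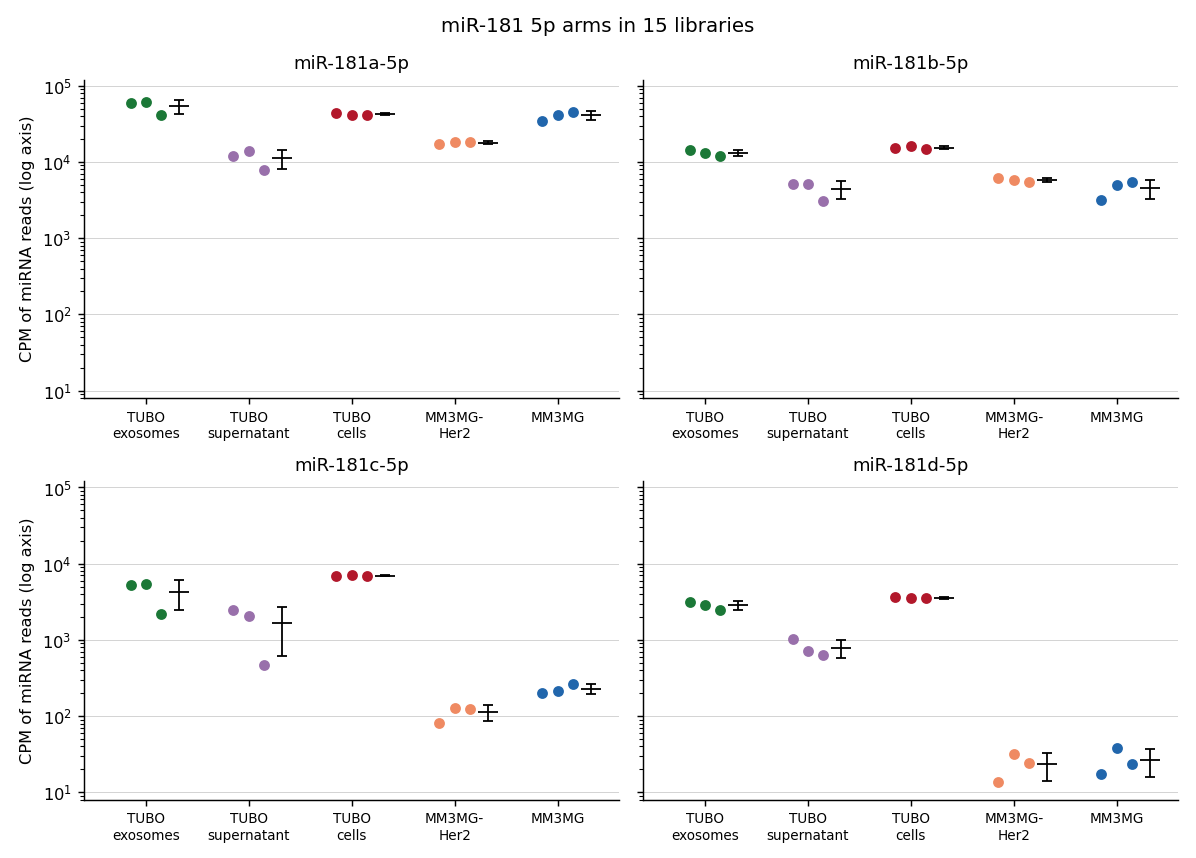
CPM of miRNA reads (log axis) of the 4 members in every library, by group, with 1 point per library and the mean ± SD beside the points (n = 3). miR-181c-5p and miR-181d-5p are separated by more than a factor of 10 on the axis between TUBO cells and both MM3MG lines, whereas miR-181a-5p in TUBO cells lies among the MM3MG libraries.

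miR-181a-5p, the member best known as a regulator of lymphocyte signalling thresholds, was lowest in the supernatant and in MM3MG-Her2. It stood at 60212, 60646 and 41522 CPM in TUBO exosomes, 11907, 14027 and 7782 CPM in TUBO supernatant, 43922, 41098 and 41960 CPM in TUBO cells, 17160, 18514 and 18119 CPM in MM3MG-Her2, and 34881, 41918 and 45889 CPM in MM3MG. In order of their means the groups ran exosomes, TUBO cells, MM3MG, MM3MG-Her2 and supernatant. Neighbours overlapped among the first 3, and the last 2 were each clear of the group above.

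miR-181b-5p, made from the hairpins next to those of miR-181a, was highest in TUBO cells. It stood at 14183, 13179 and 11935 CPM in TUBO exosomes, 5130, 5170 and 3091 CPM in TUBO supernatant, 15160, 16108 and 14996 CPM in TUBO cells, 6079, 5873 and 5468 CPM in MM3MG-Her2, and 3145, 5063 and 5501 CPM in MM3MG. TUBO cells lay just above exosomes, and both lay well above MM3MG-Her2, MM3MG and supernatant, whose neighbours in the order of means overlapped.

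miR-181c-5p, from the Nanos3 locus, stood at 5317, 5377 and 2188 CPM in TUBO exosomes, 2483, 2047 and 470 CPM in TUBO supernatant, 6924, 7105 and 6893 CPM in TUBO cells, 81.8, 129 and 125 CPM in MM3MG-Her2, and 201, 217 and 265 CPM in MM3MG. TUBO cells were highest, exosomes and supernatant overlapped, and every MM3MG library was above every MM3MG-Her2 library. Replicate 3 was the lowest library in both secreted fractions and was not set apart in the cells.

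miR-181d-5p, its neighbour at the same locus, stood at 3179, 2877 and 2471 CPM in TUBO exosomes, 1029, 723 and 632 CPM in TUBO supernatant, 3694, 3560 and 3498 CPM in TUBO cells, 13.6, 32.3 and 23.9 CPM in MM3MG-Her2, and 17.7, 38.2 and 23.8 CPM in MM3MG. The 3 TUBO-derived groups did not overlap each other, and the 2 MM3MG lines did. In reads, miR-181d-5p was counted 1793, 1382 and 1823 times in TUBO cells, 3, 8 and 4 times in MM3MG-Her2 and 5, 18 and 8 times in MM3MG.

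Because miR-181d-5p is 1 substitution from miR-181b-5p, its few reads in the MM3MG lines were set beside the same kind of change elsewhere in miR-181b-5p. Inserts with a C-to-T change at base 7 of miR-181b-5p numbered 53, 43 and 68 in TUBO cells, 7, 9 and 3 in MM3MG-Her2 and 6, 15 and 5 in MM3MG. The miR-181d-5p reads exceeded these in 3 of the 6 MM3MG-Her2 and MM3MG libraries and in all TUBO cell libraries. Base 7 was the commonest of the 3 other C-to-T positions: base 3 had at most 2 and base 16 at most 6 such inserts in any MM3MG-Her2 or MM3MG library, fewer than miR-181d-5p in all 6. Over all other single-base substitutions of miR-181b-5p the mean number of inserts per substitution was 1.53, 1.72 and 0.962 in MM3MG-Her2 and 1.21, 2.77 and 2.26 in MM3MG, below miR-181d-5p. The commonest substitution had 36, 35 and 13 inserts in MM3MG-Her2 and 18, 49 and 55 in MM3MG, more than miR-181d-5p in all 6. How many of the MM3MG reads are true miR-181d-5p was not tested, so the fold changes of miR-181d-5p against the MM3MG lines depend on these few reads. For miR-181c-5p, inserts that read as miR-181a-5p with 1 other base removed were counted, as a mean per removal. That mean was 32.8, 23.4 and 34.2 in TUBO cells, against 3361, 2758 and 3592 reads of miR-181c-5p. It was 4.31, 5.62 and 4.23 in MM3MG-Her2, against 18, 32 and 21 reads, and 11.2, 26.1 and 17.2 in MM3MG, against 57, 102 and 89 reads. miR-181c-5p was above this mean in every library. However, removal of base 1 leaves the same 18 bases as an insert that begins 1 base late. All these other removals had 146, 339 and 224 inserts in MM3MG, where 144, 334 and 217 inserts of miR-181a-5p began 1 or 2 bases late. The mean may therefore largely count late starts, and internal removals were not counted apart.

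Her2 transduction was compared with the untransduced line first. miR-181a-5p and miR-181c-5p fell in MM3MG-Her2 cells, and miR-181b-5p and miR-181d-5p did not pass the test. The log2 fold change of miR-181a-5p was −1.28 ± 0.11 (SE; edgeR quasi-likelihood test with Benjamini-Hochberg adjustment over all arms tested, adjusted p = 3.88e-11). For miR-181c-5p it was −1.12 ± 0.20 (edgeR adjusted p = 1.4e-05), and −1.73 without MM3MG-Her2 replicate 3. Both miRNAs were lower in 3 of 3 MM3MG-Her2 libraries, with no overlap. miR-181b-5p had a log2 fold change of 0.25 ± 0.16 (edgeR adjusted p = 0.178) and miR-181d-5p one of −0.34 ± 0.41 (edgeR adjusted p = 0.498).

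Those 2 of 4 members that passed, both lower, stand beside 59.6% of the 260 arms tested that passed in either direction and 33.5% that were lower, so change was the common outcome in this comparison. In CPM the groups did not overlap for 2 of 4 members and for 65.8% of all arms. The call for miR-181b-5p depended on the refit: without MM3MG replicate 1 its log2 fold change was −0.41 (edgeR adjusted p = 1.98e-06), and without MM3MG replicate 2 it was 0.42 (edgeR adjusted p = 0.0161). CPM did not show the fall: MM3MG-Her2 stood at 6079, 5873 and 5468, and MM3MG replicates 2 and 3 at 5063 and 5501. Leaving out MM3MG replicate 1 also took miR-181d-5p to −0.98 (edgeR adjusted p = 0.044). Each refit recomputes the scaling and the spread estimate, and the part of either was not tested. For miR-181a-5p the edgeR adjusted p of these refits went down to 1.9e-116, so refit values are given only as a check on stability.

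The balance of miR-181a-5p to miR-181b-5p needs no scaling between libraries. There were 2.82, 3.15 and 3.31 reads of miR-181a-5p per read of miR-181b-5p in MM3MG-Her2, and 11.1, 8.28 and 8.34 in MM3MG. TUBO cells were at 2.90, 2.55 and 2.80, close to MM3MG-Her2. The MM3MG libraries stood apart from those of every other group, since TUBO exosomes were at 4.25, 4.60 and 3.48 and TUBO supernatant at 2.32, 2.71 and 2.52.

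TUBO cells were then compared with MM3MG cells, the tumour line with the normal line. miR-181b-5p, miR-181c-5p and miR-181d-5p rose, the members of the Nanos3 locus most. The log2 fold change was 1.37 ± 0.16 for miR-181b-5p (edgeR adjusted p = 1.54e-07), 4.55 ± 0.16 for miR-181c-5p (edgeR adjusted p = 2.01e-21) and 6.59 ± 0.22 for miR-181d-5p (edgeR adjusted p = 5.22e-22). All 3 were higher in 3 of 3 TUBO libraries without overlap.

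The 3 of 4 members that rose can be read against 83.1% of 260 arms that passed in either direction and 30% that were higher, and 82.3% of all arms did not overlap between the groups. The median log2 fold change over all arms was −0.53 with this scaling, and members are best read relative to it. miR-181a-5p had a log2 fold change of −0.33 ± 0.11 (edgeR adjusted p = 0.0072), but its libraries overlapped and its sign depended on the scaling: it was 0.05 with RLE scaling, where the median of all arms was −0.15, and 0.34 without the filter on low counts (edgeR adjusted p = 0.00366). Without TUBO replicate 1, 2 or 3 it was −0.25, −0.24 or −0.24, without MM3MG replicate 2 it was −0.22 and without MM3MG replicate 3 it was −0.08, and none of these passed. Only without MM3MG replicate 1 did it pass, at −0.33 (edgeR adjusted p = 7.6e-06). No direction is therefore given for miR-181a-5p between these lines.

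Against MM3MG-Her2 cells, all 4 members rose in TUBO cells. The log2 fold change was 0.95 ± 0.11 for miR-181a-5p (edgeR adjusted p = 7.97e-09), 1.12 ± 0.16 for miR-181b-5p (2.77e-06), 5.67 ± 0.18 for miR-181c-5p (2.82e-22) and 6.94 ± 0.24 for miR-181d-5p (2.65e-21). No member's libraries overlapped. For comparison, 81.5% of the 260 arms passed in either direction, 25.8% were higher and 55.8% lower, 79.6% did not overlap, and the median was −0.73. Of the arms called, 31.6% were higher with this scaling and 43.7% with RLE scaling, where the median was −0.22. The fitted size for the a/b pair moved when 1 library was left out. Without MM3MG-Her2 replicate 3 miR-181a-5p was at 1.67 and miR-181b-5p at 1.79, and without MM3MG-Her2 replicate 1 they were at 1.47 and 1.70. In CPM miR-181a-5p was close between the MM3MG-Her2 libraries (17160, 18514 and 18119). Leaving out a library also recomputes the scaling, and the part of that in these shifts was not tested. The 2 TUBO comparisons share the TUBO libraries, so they are not independent.

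**Figure D2:**
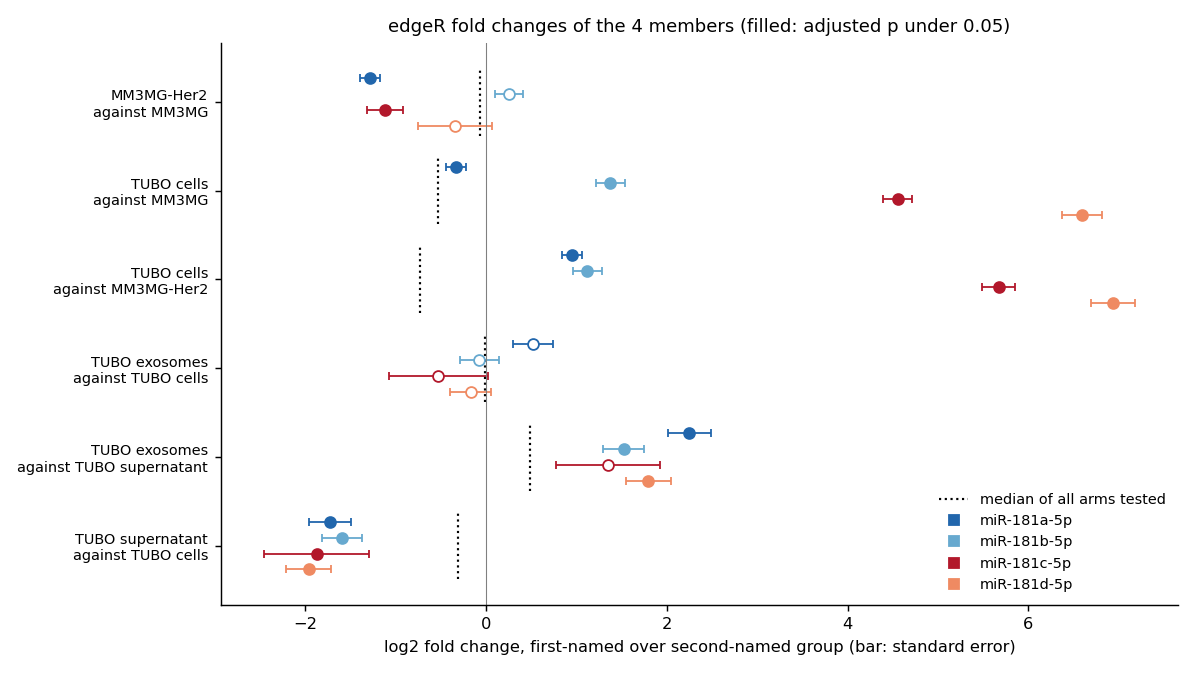
edgeR log2 fold changes (x axis, first-named over second-named group) of the 4 members in the 6 comparisons (y axis), with bars for the standard error, filled points for an adjusted p under 0.05 and a dotted line at the median of all arms tested. miR-181c-5p and miR-181d-5p lie between 4.55 and 6.94 in both comparisons of TUBO cells with an MM3MG line, and every member lies below 0 in TUBO supernatant against TUBO cells.

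The a/b members and the c/d members were compared with each other inside each library, as the log2 ratio of miR-181a-5p plus miR-181b-5p reads to miR-181c-5p plus miR-181d-5p reads. This ratio needs no scaling between libraries. It was 3.27 ± 0.22 in TUBO exosomes, 2.79 ± 0.51 in TUBO supernatant, 2.45 ± 0.03 in TUBO cells, 7.49 ± 0.38 in MM3MG-Her2 and 7.48 ± 0.04 in MM3MG (SD, n = 3 each). The c/d pair thus made up 15.2%, 15.7% and 15.4% of family reads in TUBO cells (95% Wilson intervals 14.9 to 15.6, 15.3 to 16.2 and 15.1 to 15.8). It made up 0.409%, 0.658% and 0.629% in MM3MG-Her2 (intervals 0.268 to 0.625, 0.484 to 0.895 and 0.427 to 0.928), and 0.572%, 0.540% and 0.559% in MM3MG (0.447 to 0.733, 0.452 to 0.645 and 0.458 to 0.681). Reads amplified by PCR and carrying no molecular identifier can repeat 1 molecule, so these intervals and all floors cover counting error only.

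Across the 5 groups the ratio differed (exact permutation test over 1401400 partitions of the 15 libraries, p = 0.000236), and 98.9% of its variance lay between groups. Between pairs of groups, 3 libraries against 3 cannot give a two-sided exact permutation p below 0.1, and after adjustment over the 6 comparisons the lowest value for these ratios was 0.2. The difference was −5.03 for TUBO cells minus MM3MG and −5.04 for TUBO cells minus MM3MG-Her2, each without overlap (exact permutation p = 0.1). MM3MG-Her2 exceeded MM3MG by 0.01 with overlapping libraries (exact permutation p = 1), a difference smaller than the spread between the MM3MG-Her2 libraries. TUBO exosomes exceeded TUBO cells by 0.82 without overlap (exact permutation p = 0.1). TUBO exosomes exceeded supernatant by 0.48 (exact permutation p = 0.3) and supernatant exceeded cells by 0.34 (exact permutation p = 0.4), both with overlap. Exosomes minus supernatant was 0.22 without supernatant replicate 1 and 0.73 without supernatant replicate 3, and supernatant minus cells was 0.60 and 0.084 without the same libraries.

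**Figure D3:**
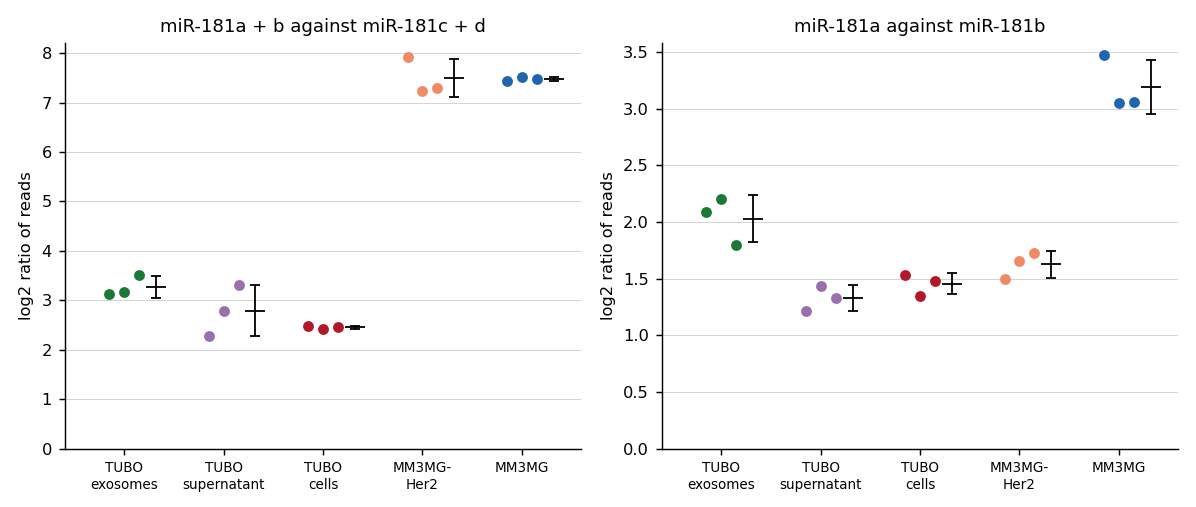
Log2 ratio of reads (y axes) per library by group, with the mean ± SD beside the points (n = 3): miR-181a-5p plus miR-181b-5p against miR-181c-5p plus miR-181d-5p on the left, miR-181a-5p against miR-181b-5p on the right. Both MM3MG lines lie near 7.5 on the left and the 3 TUBO-derived groups between 2.28 and 3.52, while on the right MM3MG alone lies above 3.

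What TUBO cells release was compared with the cells. None of the 4 members passed the edgeR test in exosomes against cells, where 37.1% of 221 arms passed. Of the arms called, 57.3% were higher in exosomes with this scaling, 46.2% with RLE and 73.8% with upper-quartile scaling. At an unadjusted p under 0.05 there was 1 member, miR-181a-5p, and DESeq2 also called none of the 4 after adjustment. The log2 fold change was 0.52 ± 0.23 for miR-181a-5p (edgeR adjusted p = 0.0753), −0.07 ± 0.22 for miR-181b-5p (0.802), −0.53 ± 0.55 for miR-181c-5p (0.482) and −0.17 ± 0.23 for miR-181d-5p (0.565). In CPM, 3 of 4 members were lower in exosomes without overlap, beside 63.8% of arms whose groups did not overlap in either direction. Without exosome replicate 3, miR-181a-5p was at 0.74 and passed (edgeR adjusted p = 0.0193). A fit with replicate number as a block also called miR-181a-5p and miR-181c-5p, though the labels do not pair the numbers.

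In exosomes against the remaining supernatant, miR-181a-5p, miR-181b-5p and miR-181d-5p rose. Their log2 fold changes were 2.25 ± 0.24 (edgeR adjusted p = 4.14e-08), 1.52 ± 0.22 (4.26e-06) and 1.79 ± 0.25 (1.88e-06), without overlap. miR-181c-5p was at 1.34 ± 0.58 and did not pass (edgeR adjusted p = 0.0719). It passed without exosome replicate 3 (1.60, edgeR adjusted p = 0.0173), without supernatant replicate 1 (1.60, 0.00974) and without supernatant replicate 3 (0.83, 0.0311). It also passed with replicate number as a block. In this comparison 67% of 221 arms passed, 39.4% were higher, 68.3% did not overlap in CPM in either direction, and the median of all arms was 0.49.

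In supernatant against cells all 4 members fell. The log2 fold change was −1.73 ± 0.23 for miR-181a-5p (edgeR adjusted p = 1.16e-06), −1.60 ± 0.23 for miR-181b-5p (2.17e-06), −1.87 ± 0.58 for miR-181c-5p (0.0201) and −1.97 ± 0.25 for miR-181d-5p (4.6e-07). Every supernatant library was below every cell library for each member, beside 73.8% of all arms whose groups did not overlap in either direction. Of all 221 arms, 72.4% passed, 38.9% were lower, and the median was −0.32. The 3 comparisons of TUBO fractions share libraries pair by pair.

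Markers of other RNA sources differed in level between these fractions. The 8 blood cell and serum markers summed to 10755 to 25840 CPM in exosomes and 3158 to 7392 CPM in supernatant. They summed to 131 to 163 CPM in cells, where miR-451a, miR-144-3p, miR-223-3p, miR-142a-3p and miR-150-5p were at 0. Most of the sum outside cells was miR-3107-5p/miR-486-5p, with means of 14865 CPM in exosomes and 4552 CPM in supernatant. miR-144-3p, miR-223-3p, miR-142a-3p and miR-142a-5p were at 0 in supernatant. The same markers summed to 1107 to 1278 CPM in MM3MG cells, so the sum is no measure of blood or serum alone. Cells were grown in serum, and its part in the family's levels outside cells was not tested.

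The c/d pair did not keep 1 ratio in the secreted fractions. There were 1.67, 1.87 and 0.885 reads of miR-181c-5p per read of miR-181d-5p in exosomes and 2.41, 2.83 and 0.745 in supernatant, against 1.87, 2.00 and 1.97 in cells. Replicate 3 of both secreted fractions had fewer miR-181c-5p than miR-181d-5p reads, which no other library had.

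The 3p arms tell the hairpins apart. miR-181a-1-3p, from the chromosome 1 locus, stood at 740, 608 and 804 CPM in TUBO exosomes, 219, 176 and 121 CPM in supernatant, 915, 848 and 931 CPM in TUBO cells, 677, 517 and 550 CPM in MM3MG-Her2, and 378, 533 and 515 CPM in MM3MG. miR-181a-2-3p, from the chromosome 2 locus, stood at 1078, 862 and 1653 CPM in TUBO exosomes, 1893, 2611 and 4247 CPM in supernatant, 1059, 1018 and 1009 CPM in TUBO cells, 309, 319 and 371 CPM in MM3MG-Her2, and 166, 140 and 125 CPM in MM3MG. The chromosome 2 arm did not overlap between any of the cell groups, and the chromosome 1 arm overlapped between the MM3MG lines.

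miR-181a-2-3p rose in MM3MG-Her2 against MM3MG, with a log2 fold change of 1.12 ± 0.19 (edgeR adjusted p = 5.99e-06), while miR-181a-5p fell there. The fitted size for miR-181a-2-3p was 0.70, 0.50 and 0.55 without MM3MG-Her2 replicate 1, MM3MG-Her2 replicate 3 and MM3MG replicate 3. These refits also recompute the scaling, and the part of that in the smaller sizes was not tested. In TUBO cells miR-181a-2-3p rose by 2.46 ± 0.17 against MM3MG (edgeR adjusted p = 3.85e-14) and by 1.34 ± 0.16 against MM3MG-Her2 (1.18e-08, and 2.13 without MM3MG-Her2 replicate 3). miR-181a-1-3p had a log2 fold change of 0.19 ± 0.17 in MM3MG-Her2 against MM3MG (edgeR adjusted p = 0.336), but −0.40 and past the threshold without MM3MG replicate 1 (0.00973), so no direction is given there. It rose by 0.52 ± 0.16 in TUBO cells against MM3MG (0.00326). Against MM3MG-Her2 it was at 0.33 ± 0.16 in TUBO cells (edgeR adjusted p = 0.0582), and at 1.01 without MM3MG-Her2 replicate 1 or without replicate 3, where it passed.

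Taken as a share of both arms, miR-181a-2-3p made up 53.4% ± 1.28 in TUBO cells, 36.6% ± 4.67 in MM3MG-Her2 and 23.6% ± 6.01 in MM3MG (SD, n = 3 each). It made up 61.7% ± 4.82 in TUBO exosomes and 93.5% ± 3.81 in TUBO supernatant, where miR-181a-1-3p had only 16, 10 and 9 reads. No library of one cell group overlapped with another in this share: 52.0% to 54.6% in TUBO cells, 31.3% to 40.3% in MM3MG-Her2 and 19.5% to 30.5% in MM3MG.

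miR-181c-3p, the passenger of miR-181c, moved in the same direction as its guide between the lines, but its rises in TUBO cells were smaller. It stood at 301, 386 and 334 CPM in TUBO cells, 9.09, 12.1 and 17.9 CPM in MM3MG-Her2, and 42.4, 34.0 and 29.8 CPM in MM3MG. It rose in TUBO cells by 2.88 ± 0.24 against MM3MG (edgeR adjusted p = 4.96e-12) and by 4.42 ± 0.34 against MM3MG-Her2 (7.88e-13). In MM3MG-Her2 against MM3MG it fell by 1.54 ± 0.48 on the log2 scale (edgeR adjusted p = 0.00675), a call that rests on 2 to 3 reads a library in MM3MG-Her2 and 10 to 16 in MM3MG. In the supernatant it stood at 316, 688 and 309 CPM, overlapping the cells, with a log2 fold change of 0.52 ± 0.31 against them (edgeR adjusted p = 0.134). Without supernatant replicate 1 it was at 0.82 and passed (edgeR adjusted p = 0.0212).

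miR-181b-1-3p, with 8 reads over all exosome libraries and 44 over all TUBO cell libraries, had 0 reads in supernatant, which allows up to 14.7 CPM at 3 reads over that group. It did not pass in any comparison of the cell lines, with log2 fold changes of 0.84 ± 0.51 in MM3MG-Her2 against MM3MG (edgeR adjusted p = 0.161), 0.62 ± 0.44 in TUBO cells against MM3MG (0.186) and −0.22 ± 0.44 in TUBO cells against MM3MG-Her2 (0.652). miR-181b-2-3p and miR-181d-3p had at most 7 reads in any group. Of the 6 passenger arms, 4 were tested between the cell lines. In MM3MG-Her2 against MM3MG 1 was higher and 1 lower, beside 26.2% and 33.5% of all arms tested. In TUBO cells against MM3MG 3 were higher, beside 30% of all arms, and in TUBO cells against MM3MG-Her2 2 were higher, beside 25.8%.

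**Figure D4:**
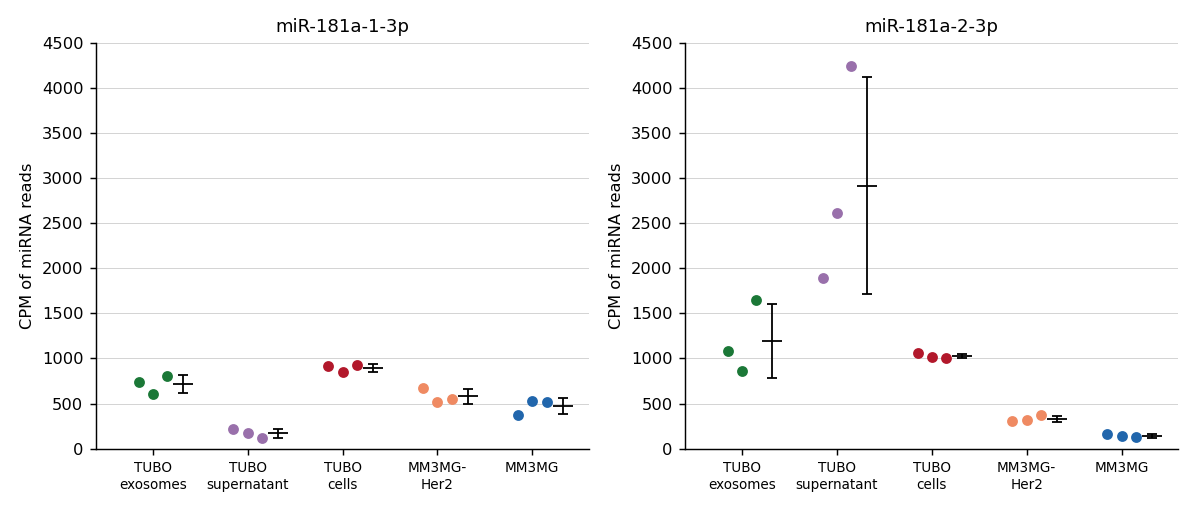
CPM of miRNA reads (y axes) of the passenger arms miR-181a-1-3p (left) and miR-181a-2-3p (right) per library by group, with the mean ± SD beside the points (n = 3). In TUBO supernatant miR-181a-2-3p reaches 1893 to 4247 CPM, above every other library, while miR-181a-1-3p is at its lowest there.

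In the supernatant the arms of miR-181a parted. miR-181a-2-3p rose in supernatant against cells by 1.70 ± 0.28 (edgeR adjusted p = 1.74e-05) while miR-181a-1-3p fell by 2.18 ± 0.29 (1.02e-06) and the guide miR-181a-5p fell. For miR-181a-1-3p this rests on 16, 10 and 9 reads in the supernatant libraries. In exosomes against supernatant miR-181a-2-3p had a log2 fold change of −1.33 ± 0.28 (edgeR adjusted p = 0.000289) and miR-181a-1-3p one of 2.01 ± 0.29 (3.62e-06). Exosomes and cells did not differ past the threshold in either arm, with 0.37 ± 0.27 for miR-181a-2-3p (edgeR adjusted p = 0.298) and −0.16 ± 0.23 for miR-181a-1-3p (0.584).

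Most miR-181a-2-3p reads of the supernatant were of 1 form, which ends 1 base before the RefSeq sequence. Both forms are shown because their shares differ between the supernatant and the other groups, with bases 2 to 8 in capitals.
miR-181a-2-3p, 22 bases, chr2:38852785-38852806: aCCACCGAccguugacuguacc
miR-181a-2-3p, 21 bases, chr2:38852785-38852805: aCCACCGAccguugacuguac

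The 21-base form made up 84.1%, 86.5% and 84.5% of miR-181a-2-3p reads in supernatant, against 23.2%, 19.5% and 24.3% in TUBO cells. It made up 23.2%, 27.5% and 21.6% in exosomes. The 22-base form had 1, 2 and 2 reads in supernatant, against 307, 256 and 315 reads in TUBO cells. All reads shorter than 22 bases together made up 98.6%, 98.0% and 99.1% in supernatant. No supernatant library came near those of another group, where the 21-base form reached at most 42.9%, in MM3MG. For these shares no test was run, since the form was picked after its reads had been seen.

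The 3′ ends of miR-181a-5p itself also differed between groups. Reads shorter than its 23-base RefSeq form made up 26.2% ± 0.93 in exosomes, 70.0% ± 8.13 in supernatant, 19.9% ± 0.33 in TUBO cells, 12.9% ± 0.19 in MM3MG-Her2 and 23.1% ± 2.75 in MM3MG (SD, n = 3 each). In all 6 comparisons the libraries did not overlap (exact permutation p = 0.1 each, 0.1 after adjustment over the 6, the smallest value that 3 against 3 allows). The differences were 50.1 percentage points for supernatant minus cells, −43.8 for exosomes minus supernatant, 6.31 for exosomes minus cells, −10.2 for MM3MG-Her2 minus MM3MG, −3.17 for TUBO cells minus MM3MG and 7.02 for TUBO cells minus MM3MG-Her2. The difference of TUBO cells minus MM3MG was −1.77 without MM3MG replicate 1. With inserts of 20 to 24 bases only, the differences of exosomes from cells (−0.471) and of TUBO cells from MM3MG (2.43) changed sign.

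Short inserts were commoner in the supernatant for other miRNAs too. Over the RefSeq arms with at least 100 reads in a library, 41 to 51 arms in supernatant libraries and 89 to 96 in TUBO cell libraries, the median share of reads shorter than the mature form was 30.1%, 37.4% and 24.2% in supernatant and 15.8%, 15.2% and 16.1% in TUBO cells. miR-181a-5p exceeded the median in each of those libraries, and 13, 10 and 9 arms in the supernatant had a larger share than it. The median share differed between the other groups too, at a mean of 18.5% in exosomes, 12.4% in MM3MG-Her2 and 18.4% in MM3MG. In MM3MG-Her2, 40 of 83, 40 of 86 and 35 of 69 arms had a larger share than miR-181a-5p. Inserts of at most 20 bases made up 28.9% ± 4.70 of all reads in supernatant and 10.1% ± 0.279 in TUBO cells (SD, n = 3 each). The part of these general differences in insert length in the family's values was not tested.

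Long forms set the cell groups apart. Reads of 25 bases, most often the RefSeq form of miR-181a-5p with 2 more U at its end, made up 27.6%, 27.6% and 26.9% of miR-181a-5p reads in TUBO cells, 32.9%, 31.6% and 31.6% in MM3MG-Her2, and 9.70%, 10.7% and 11.7% in MM3MG. Exosomes had 8.03%, 8.15% and 8.96%, well under the cells they came from, and more of the 23-base form, at 53.6% ± 1.77 against 36.6% ± 0.85 in TUBO cells. Over all lengths, 87.8% ± 0.56 of miR-181a-5p reads in TUBO cells and 88.3% ± 0.18 in MM3MG-Her2 matched a miR-181a hairpin to their last base. Most 25-base reads of these 2 groups were therefore hairpin sequence rather than added bases. These length classes were described after the values were seen and were not tested.

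**Figure D5:**
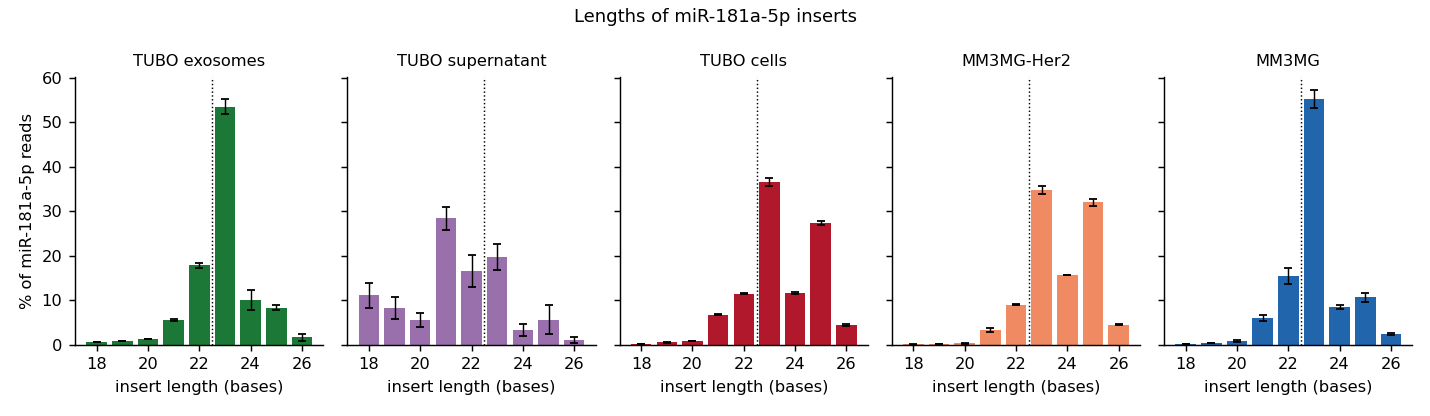
Share of miR-181a-5p reads (y axis, %) at each insert length (x axis, bases) as the mean of 3 libraries per group with SD bars, and a dotted line between 22 and 23 bases, the RefSeq form having 23. TUBO cells and MM3MG-Her2 show a high second peak at 25 bases, MM3MG and TUBO supernatant a lower one there, and TUBO supernatant has its main peak at 21 bases.

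Inserts that began 1 or 2 bases late were 1.36% to 2.03% of reads for miR-181a-5p over the 15 libraries, 1.29% to 3.93% for miR-181b-5p, 0% to 5.26% for miR-181c-5p and 0% to 6.82% for miR-181d-5p. Across libraries the commonest insert of miR-181c-5p was 24 bases (42.8% of its reads) and that of miR-181d-5p also 24 bases (37.2%), both longer than the RefSeq forms of 22 and 23 bases. miR-181a-5p and miR-181b-5p had their RefSeq forms as the commonest insert (42.5% and 31.3%).

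Outside the family, the arms whose levels were most like each member's were found by Pearson's r of log2(CPM + 1) over the 15 libraries, among 149 arms with at least 100 CPM on average. These r share libraries, depth and the split between TUBO-derived and MM3MG-derived libraries, and are given only as a measure of likeness. miR-181a-5p was most like miR-103-3p/miR-107-3p (0.96), miR-148b-3p (0.92) and miR-1839-5p (0.88). miR-181b-5p was most like miR-30c-5p counted together with miR-30b-5p (0.94), miR-30a-5p (0.91) and miR-340-5p (0.85). miR-181c-5p was most like miR-9-5p (0.98), miR-203-3p (0.97) and miR-200a-3p (0.95), and miR-181d-5p was most like miR-200a-5p (0.99), miR-141-3p (0.98) and miR-200b-3p (0.98), which are nearly absent from both MM3MG lines. Within the family, r was 0.96 between miR-181c-5p and miR-181d-5p, 0.68 between miR-181a-5p and miR-181b-5p, and 0.27 between miR-181a-5p and miR-181d-5p.

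miR-181a-5p and miR-181b-5p belong to a list of 11 miRNAs linked to the progesterone receptor, counted as 10 arms because miR-30b-5p and miR-30c-5p share their first 18 bases. In MM3MG-Her2 against MM3MG, 2 of 9 tested were higher and 5 lower, beside 26.2% and 33.5% of all arms, with a median log2 fold change of −0.46 against −0.07 for all arms. miR-30a-5p rose most (1.13, edgeR adjusted p = 2.43e-10) and miR-9-5p fell most (by 1.77, 2.38e-10). In TUBO cells against MM3MG 6 of 9 were higher and 3 lower, beside 30% and 53.1% of all arms, with a median of 0.50 against −0.53, led by miR-9-5p (7.13, edgeR adjusted p = 5.91e-27) and by miR-26a-5p downwards (−2.07, 2.73e-15). In TUBO cells against MM3MG-Her2, 6 of 9 were higher and 2 lower, beside 25.8% and 55.8%, with a median of 1.03 against −0.73, where miR-9-5p was at 8.90 (edgeR adjusted p = 9.4e-28) and miR-26a-5p at −0.89 (1.71e-07). Of the fraction comparisons, exosomes against cells had 2 of 10 higher and 0 lower, beside 21.3% and 15.8% of all arms. Exosomes against supernatant had 9 higher and 1 lower, beside 39.4% and 27.6%, and supernatant against cells 0 higher and 8 lower, beside 33.5% and 38.9%. The largest rise in exosomes was that of miR-126a-3p, which is known from endothelium and averaged 68.2 CPM in exosomes but was at 0 in supernatant and cells, so no fold is given. The largest fall in supernatant against cells was that of miR-9-5p (by 3.39, edgeR adjusted p = 2.17e-07). The list holds 2 members of the family, so it is no independent view of them.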

How the data were processed

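Per the labels' protocols, total RNA was taken with TRIzol, adapters were ligated to both ends, and the products were amplified by PCR and cut from a gel. The authors deposited counts, as distinct insert sequences with the number of reads of each. Trimming, aligner and genome build: not given in the sources used here. No molecular identifiers are named. Inserts of 18 to 26 bases were assigned by an exact match of their first 18 bases to 1721 mature arms, from RefSeq on GRCm38.p6 and, for 49 arms that table lacks, from GENCODE M21 hairpins with their commonest start. CPM are over the miRNA reads of a library.

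Counts were compared with edgeR 4.0.16 in R 4.3.3 (TMM scaling, filterByExpr, robust quasi-likelihood F-test, Benjamini-Hochberg adjustment over all arms, threshold 0.05), in 1 fit of the 9 cell libraries and 1 of the 9 TUBO-derived libraries. The scripts were tested on simulated data. DESeq2 1.42.0 and other scalings, filters and match rules were alternatives. Ratios and shares used exact two-sided permutation tests in Python 3.11. Named miRNAs were the members, the passenger arms with reads, the 3 arms most like each member, and the largest rise and fall of the progesterone receptor list. Members and lists were chosen with earlier results of these data known. Replicates of a group differed by more than sampling noise.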

Additional observations from a re-analysis of the deposited data

How the results depend on the processing

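Of 360 alternative values for the 4 members in 24 member and comparison pairs, 320 kept their direction and their side of the threshold, 19 newly passed, 6 no longer passed and 15 changed sign. The rises of miR-181c-5p and miR-181d-5p in TUBO cells against both MM3MG lines were among those kept under each alternative run. For miR-181a-5p in TUBO cells against MM3MG the log2 fold change was 0.051 with RLE scaling, −0.057 with upper-quartile scaling, 0.050 with no scaling, 0.343 with no filter, 0.051 with DESeq2, 0.335 with at most 2 differences after base 18, and −0.33 to −0.077 with 1 library left out. For miR-181b-5p in MM3MG-Her2 against MM3MG it was 0.47 with upper-quartile scaling, −0.020 in 1 fit of all libraries, 0.34 with at most 2 differences, 0.35 with inserts of 20 to 24 bases, and −0.41 to 0.42 with 1 library left out. For miR-181d-5p there it was 0.15 with inserts of 20 to 24 bases and −0.98 to 0.16 with 1 library left out, and for miR-181a-1-3p −0.092 in 1 fit and −0.40 to 0.42. In exosomes against cells, upper-quartile scaling gave 0.72 for miR-181a-5p, 0.13 for miR-181b-5p, 0.035 for miR-181d-5p and 0.043 for miR-181a-1-3p. There miR-181a-5p was at 0.55 with no filter, 0.73 with inserts of 20 to 24 bases and 0.31 to 0.74 with 1 library left out, and miR-181b-5p at −0.24 to 0.052. In exosomes against supernatant, miR-181c-5p was at 1.43 with RLE scaling, 1.33 with upper-quartile scaling, 1.43 with DESeq2, 1.16 in 1 fit and 0.83 to 1.60 with 1 library left out, and miR-181c-3p at −0.65 to 0.12. miR-181b-1-3p in TUBO cells against MM3MG-Her2 was at 0.29 with RLE, 0.073 with no scaling, 0.44 with no filter, 0.28 with DESeq2, 0.36 with at most 2 differences and −0.35 to 0.59. The a/b to c/d ratio of MM3MG-Her2 minus MM3MG was −0.38 with inserts of 20 to 24 bases, −0.011 with shifted starts and −0.21 to 0.13 with 1 library left out. Across the 5 groups its exact permutation p was 6.78e-05 to 0.000482. The short share of miR-181a-5p differed by 2.43 points for TUBO cells minus MM3MG and −0.471 for exosomes minus cells with inserts of 20 to 24 bases. The cause of these changes was not tested. Same-numbered libraries had correlations of deviations of −0.204 to 0.324, and the labels do not pair the numbers, so the numbers are not taken as pairs. For exosomes and supernatant these correlations were 0.0944, 0.181 and 0.324, against −0.289 to 0.193 for differently numbered libraries. Whether same-numbered libraries of these fractions share a preparation was not tested. With the replicate block, miR-181a-5p (0.48) and miR-181c-5p (−0.72) in exosomes against cells and miR-181c-5p (1.42) in exosomes against supernatant passed, and calls over all arms numbered 85 and 143, against 82 and 148 without it. Depth limits miR-181d-5p, miR-181c-3p and miR-181b-1-3p in the MM3MG lines, which together ranged over 2 to 18 reads per library there.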
